A study of Homo sapiens with 18 samples.

Results

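The 10 genes described here belong to the Hippo/YAP pathway: the target genes CCN1, CCN2 and ANKRD1, the regulators AMOTL1, AMOTL2, LATS2 and AJUBA, and the nuclear components TEAD1, YAP1 and WWTR1. They were chosen by name, with earlier results of these data known. Their counts beside those of all genes are therefore descriptions and no test of the set. They were matched to the Ensembl identifiers of the deposited count matrix, 10 of its 58395 lines, and each symbol matched 1 line. RNA was sequenced from BxPC-3, an established human pancreatic adenocarcinoma line, all groups being grown in RPMI medium with fetal bovine serum. Cells received HGF at 80 ng/ml (hepatocyte growth factor, which binds the receptor tyrosine kinase MET), MSP at 100 ng/ml (macrophage-stimulating protein, which binds the related receptor RON) or phosphate-buffered saline as the vehicle. RNA was collected after 1 h and after 4 h, with 3 libraries in each of the 6 groups: HGF, MSP and vehicle at 1 h, and HGF, MSP and vehicle at 4 h. A single cell line was used, and the labels do not say whether the 3 libraries of a group were grown as separate cultures. The p-values therefore reflect the scatter among these libraries alone, which may be technical.

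The Hippo pathway is a kinase cascade that holds back YAP (gene YAP1) and TAZ (gene WWTR1), which have no DNA-binding domain of their own. The MST kinases activate the LATS kinases, and LATS phosphorylates YAP and TAZ, which keeps them in the cytoplasm or sends them for degradation. When unphosphorylated they enter the nucleus, bind TEAD transcription factors and switch on target genes such as CCN1, CCN2 and ANKRD1. Some targets, among them LATS2 and AMOTL2, encode proteins that restrain YAP in turn. None of this protein-level control is read directly by RNA levels.

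Library totals ranged from 30556613 to 48477215 counts, and 16794 genes entered the tests, all 10 members among them. Levels are CPM, counts divided by library sizes scaled with TMM factors, and differences are log2 fold changes with their standard error (SE) and 95% confidence interval where given. Adjusted p-values are from the quasi-likelihood F test of edgeR, with Benjamini-Hochberg adjustment across these genes, and a gene is said to have risen, fallen or changed where that value is below 0.05. Epithelial keratins marked every library, KRT19 at 2031 to 2536 CPM. Of the fibroblast markers COL1A1 stood at 7.71 to 12.3 CPM and COL3A1 at 3.23 to 6.64 CPM, while LUM, DCN, PDGFRB and COL1A2 reached 2.05, 0.340, 0.152 and 0.0598 CPM at most. Leukocyte markers reached 1.65 CPM (CD14), 1.41 CPM (CD3E), 0.253 CPM (CD79A) and 0.114 CPM (PTPRC), and endothelial markers 6.35 CPM (VWF), 1.79 CPM (CDH5) and 1.69 CPM (PECAM1). Replicates differed by more than counting noise in every group, most among the MSP libraries at 1 h (chi-square per degree of freedom 7.23 to 20.3, against 3.03 to 5.77 elsewhere). HGF at 4 h changed most genes tested, and its libraries had 6.11% to 6.22% mitochondrial counts, against 8.36% to 8.42% with MSP and 8.73% to 8.98% with vehicle. At 1 h the share was 7.79% to 8.16% with HGF, against 9.02% to 9.36% with MSP and 8.93% to 9.39% with vehicle. The part of this in the results was not tested. Scaling by library totals moved the median of all genes after HGF to -0.35 on the log2 scale at 4 h and to -0.11 at 1 h, against -0.059 and -0.0041 with TMM, and small changes after HGF depend on the scaling. In bulk RNA, fewer cells of a kind and less RNA per cell cannot be told apart.

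After 1 h of HGF 7 of the 10 genes rose and 1 fell, where 13.8% of all genes tested rose and 7.16% fell. The median log2 fold change of the 10 was 0.52, beside -0.0041 for all genes. Of the 7, 4 rose at least 2-fold (CCN1, CCN2, ANKRD1 and AMOTL2), as did 2.13% of all genes. After 4 h of HGF 7 rose and 2 fell, where 33.1% of all genes rose and 34.8% fell, and the medians were 0.41 for the 10 and -0.059 for all genes. At least 2-fold rises at 4 h were those of CCN1, CCN2, ANKRD1 and WWTR1, against 8.96% of all genes. With library totals the split was 6 rises and 1 fall at 1 h, where 9.07% of all genes rose and 21.4% fell, and 5 rises and 4 falls at 4 h, where 21.2% rose and 52% fell.

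MSP gave 4 rises and 0 falls at 1 h (CCN1, CCN2, ANKRD1 and AMOTL2), where 0.78% of all genes rose and 0.0536% fell. At 4 h of MSP 0 of the 10 passed in edgeR, where 0.774% of all genes rose and 0.292% fell. At that time 1 gene, TEAD1, had an unadjusted p below 0.05, and DESeq2 also called 0. The median log2 fold changes of the 10 were 0.13 at 1 h and -0.090 at 4 h, beside 0.0077 and -0.0026 for all genes. The 1 h and 4 h comparisons have their own vehicle libraries, whereas HGF and MSP share the vehicle libraries of each time. Groups without overlap, described below gene by gene, were common among all genes. HGF and vehicle libraries did not overlap for 35.7% of all genes at 1 h and 70.8% at 4 h. For MSP and vehicle the shares were 11.5% and 19%, and for HGF and MSP 28.8% and 70.6%.

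**Figure D1:**
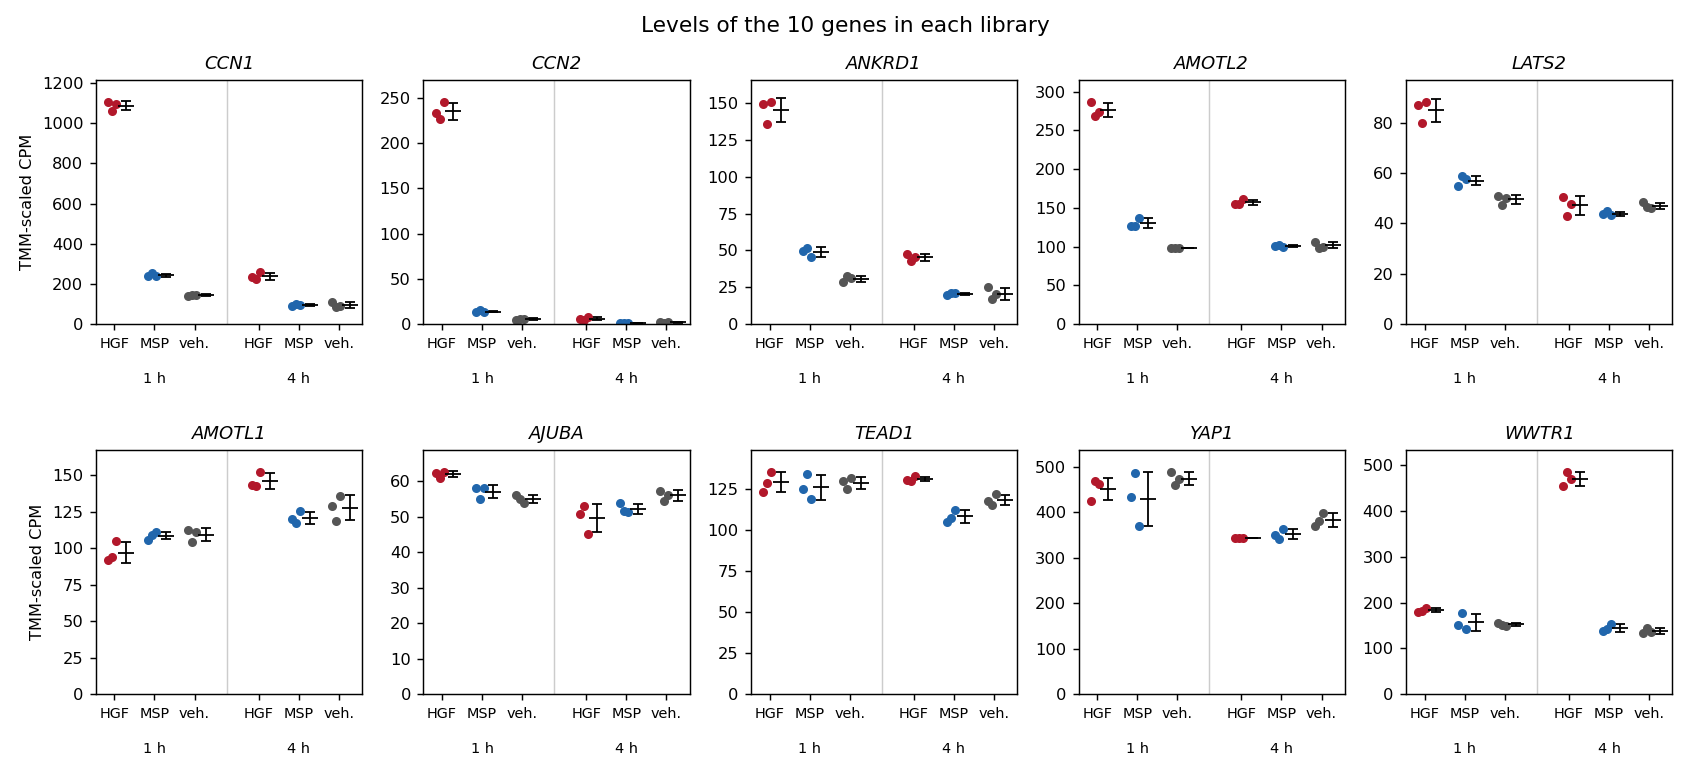
Level of each of the 10 genes in every library, in TMM-scaled CPM on linear axes that start at 0, with HGF in red, MSP in blue and vehicle in grey at 1 h and at 4 h. Points are libraries, and the bar beside them is the mean with its SD (n = 3). CCN1, CCN2, ANKRD1, AMOTL2 and LATS2 are highest with HGF at 1 h, and WWTR1 is highest with HGF at 4 h.

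CCN2, a secreted matricellular protein also called connective tissue growth factor, had the largest change of the 10 genes. Its promoter is shown because it holds the TEAD-binding motif 3 times. The 250 bases before the RefSeq start site (GRCh38.p14, chr6:131951373-131951622, minus strand, written 5′ to 3′ along the gene) follow, with each GGAATG in capitals.
CCN2: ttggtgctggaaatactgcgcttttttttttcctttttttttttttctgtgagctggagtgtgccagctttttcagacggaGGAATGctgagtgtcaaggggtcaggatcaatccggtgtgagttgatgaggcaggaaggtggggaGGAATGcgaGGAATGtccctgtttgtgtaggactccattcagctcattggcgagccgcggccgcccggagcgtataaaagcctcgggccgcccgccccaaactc
The motif copies begin 169, 104 and 95 bases before the start site.

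At 1 h CCN2 stood at 233, 227 and 246 CPM in the HGF libraries. MSP libraries had 13.6, 15.2 and 13.2 CPM and vehicle libraries 4.78, 6.14 and 5.94 CPM. The 3 groups did not overlap and ran HGF, MSP, vehicle from high to low. HGF raised CCN2 41.8-fold over vehicle (log2 fold change 5.38, SE 0.10, edgeR adjusted p = 4.72e-21), the rise that ranked 7 of the 16794 genes. MSP raised it 2.48-fold (log2 fold change 1.31, SE 0.11, edgeR adjusted p = 6.76e-08), which ranked 29.

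By 4 h CCN2 was low everywhere. HGF libraries had 6.20, 4.76 and 7.57 CPM, MSP libraries 1.60, 1.69 and 1.75 CPM and vehicle libraries 2.32, 1.52 and 1.84 CPM. The HGF libraries were still above all others at that time, while MSP and vehicle libraries overlapped. The rise after HGF was 3.29-fold (log2 fold change 1.72, SE 0.16, edgeR adjusted p = 5.03e-09). MSP differed from vehicle by -0.17 (95% interval -0.59 to 0.25, edgeR adjusted p = 0.818). Library counts behind these low levels were 51 to 232, and this interval is the widest of the 10 genes in that comparison. Vehicle itself differed between times: CCN2 averaged 1.89 ± 0.402 CPM at 4 h and 5.62 ± 0.735 CPM at 1 h (SD, n = 3 each; log2 fold change -1.58, SE 0.16, edgeR adjusted p = 6.91e-07). The HGF level at 4 h, 6.18 ± 1.40 CPM, was thus within the spread of the vehicle level at 1 h. An antisense gene shares 8.34% of the CCN2 exon length, but its own counts were 0 to 32 per library.

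CCN1, the matricellular relative of CCN2 also called CYR61, had the highest level per kilobase of the 3 targets in every group. HGF libraries at 1 h had 1106, 1062 and 1093 CPM, MSP libraries 239, 253 and 241 CPM and vehicle libraries 142, 146 and 147 CPM. No 2 of these groups overlapped. The rise was 7.49-fold with HGF (log2 fold change 2.91, SE 0.07, edgeR adjusted p = 8.03e-19) and 1.69-fold with MSP (log2 fold change 0.75, SE 0.07, edgeR adjusted p = 2.18e-07). At 4 h the values were 234, 225 and 257 CPM with HGF, 89.4, 98.4 and 92.9 CPM with MSP and 109, 83.1 and 91.7 CPM with vehicle. HGF libraries remained clear of the rest, a 2.52-fold rise (log2 fold change 1.34, SE 0.07, edgeR adjusted p = 1.32e-13), and the MSP and vehicle libraries overlapped (-0.016, 95% interval -0.16 to 0.13, edgeR adjusted p = 0.960).

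ANKRD1 encodes a nuclear ankyrin-repeat protein used widely as a YAP reporter gene. Its promoter is shown for comparison with that of CCN2, as it holds the same motif 2 times. The 250 bases before its RefSeq start site (GRCh38.p14, chr10:90921088-90921337, minus strand, 5′ to 3′ along the gene) have GGAATG in capitals.
ANKRD1: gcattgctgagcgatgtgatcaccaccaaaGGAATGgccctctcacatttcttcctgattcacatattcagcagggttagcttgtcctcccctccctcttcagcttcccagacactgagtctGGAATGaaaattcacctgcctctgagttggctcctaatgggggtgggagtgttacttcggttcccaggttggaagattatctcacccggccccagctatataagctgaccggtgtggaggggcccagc
Those copies begin 220 and 128 bases before the start site. A match to TGANTCA, searched as a loose form of the AP-1 motif with any base at N, begins 195 bases before it. Its letters are TGATTCA, so it is a match to the loose pattern only.

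ANKRD1 followed the same order as the CCN genes at 1 h. HGF libraries had 149, 136 and 151 CPM, MSP libraries 49.6, 51.8 and 45.6 CPM and vehicle libraries 28.3, 32.5 and 31.3 CPM, without overlap. HGF raised it 4.73-fold (log2 fold change 2.24, SE 0.09, edgeR adjusted p = 1.86e-13) and MSP 1.60-fold (log2 fold change 0.67, SE 0.09, edgeR adjusted p = 0.000225). At 4 h HGF libraries held 47.6, 42.9 and 45.7 CPM, MSP libraries 19.7, 21.1 and 21.0 CPM and vehicle libraries 24.9, 16.8 and 20.5 CPM. The HGF libraries were all higher than the others (2.19-fold over vehicle; log2 fold change 1.13, SE 0.10, edgeR adjusted p = 4.41e-09), whereas the MSP libraries lay inside the vehicle range (-0.012, 95% interval -0.22 to 0.20).

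GGAATG, or CATTCC on the other strand, is the core of the element that TEAD factors bind. RefSeq promoters (250 bases before to 50 bases after a start) were matched for 8 of the 10 genes, CCN1 and TEAD1 not being among them. On either strand, 14% of 35116 promoters of this length hold the motif at least 1 time, 1.37% at least 2 times and 0.128% at least 3 times. TGANTCA, searched in the same way, is in 7.71%, and the CArG box, the element of serum response factor, is in 1.29% and in none of the 8 genes' windows. Single GGAATG copies lie in windows of LATS2, YAP1, the second start of AMOTL2 and the second start of AJUBA. The windows of AMOTL1, and both windows of WWTR1, hold no match, which says only that these letters are not there. The 30-base surroundings of the single copies are given as the context of the motif, which is in capitals. They were not compared with each other, and in AMOTL2 the motif is on the strand opposite to the gene. In GRCh38.p14 they are AMOTL2 chr3:134374499-134374528, LATS2 chr13:21061560-21061589 and AJUBA chr14:22976884-22976913 on the minus strand, and YAP1 chr11:102110273-102110302 on the plus strand.
AMOTL2: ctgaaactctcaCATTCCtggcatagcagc
LATS2: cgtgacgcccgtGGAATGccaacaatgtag
AJUBA: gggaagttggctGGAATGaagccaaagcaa
YAP1: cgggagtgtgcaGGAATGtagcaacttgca
In AMOTL2 the match starts 69 bases before the second start site, in AJUBA 59 bases before it and in YAP1 162 bases before the start. In LATS2 it begins at base 10 after the start. A match is a description of the sequence, and binding was not measured.

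AMOTL2 and LATS2 are target genes whose products restrain YAP. AMOTL2, a member of the angiomotin family that binds YAP at cell junctions, stood at 287, 269 and 274 CPM with HGF at 1 h, 126, 126 and 137 CPM with MSP and 98.3, 98.0 and 97.7 CPM with vehicle. The vehicle libraries were nearly identical and both ligand groups lay wholly above them. The rises were 2.82-fold after HGF (log2 fold change 1.50, SE 0.04, edgeR adjusted p = 5.33e-23) and 1.33-fold after MSP (log2 fold change 0.41, SE 0.04, edgeR adjusted p = 9.44e-08). At 4 h HGF libraries had 156, 155 and 161 CPM, MSP libraries 100.3, 103 and 99.4 CPM and vehicle libraries 106, 98.7 and 100.2 CPM. Only the HGF libraries stood apart at 4 h (1.55-fold; log2 fold change 0.63, SE 0.04, edgeR adjusted p = 4.21e-14), by a log2 fold change of 0.34 with library totals (edgeR adjusted p = 2.48e-08). A pseudogene, RPL39P5, shares 3.12% of the AMOTL2 exon length on the same strand and had 13 to 99 counts per library, against 3322 to 12602 for AMOTL2.

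LATS2, the kinase that phosphorylates YAP and TAZ, rose after HGF at 1 h. Its levels were 86.8, 79.7 and 88.2 CPM with HGF, 54.9, 58.6 and 57.4 CPM with MSP and 51.1, 47.5 and 50.2 CPM with vehicle, again without overlap. The rise was 1.71-fold with HGF (log2 fold change 0.78, SE 0.05, edgeR adjusted p = 2.60e-13). The MSP difference of 0.20 (SE 0.05) missed the threshold (edgeR adjusted p = 0.0769). It passed with no filter on low counts (edgeR adjusted p = 0.0347) and in DESeq2 (adjusted p = 0.0445). By 4 h the HGF libraries, at 50.5, 43.0 and 47.8 CPM, spanned those of MSP (43.6, 44.8 and 43.1 CPM) and of vehicle (48.3, 46.6 and 46.2 CPM). The HGF difference was then 0.0034 (95% interval -0.11 to 0.12) with TMM scaling and -0.29 with library totals (edgeR adjusted p = 4.55e-05).

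AMOTL1 and AJUBA moved little with TMM scaling. AMOTL1, a relative of AMOTL2, had 92.0, 94.0 and 105 CPM with HGF at 1 h, 106, 109 and 111 CPM with MSP and 113, 104 and 111 CPM with vehicle. The highest HGF library was just above the lowest vehicle library, so the groups overlapped, and the call of a fall was weak (log2 fold change -0.17, SE 0.05, edgeR adjusted p = 0.0158). With library totals it was -0.27 (edgeR adjusted p = 0.000160). With TMM it was lost without vehicle replicate 1 (edgeR adjusted p = 0.0680), vehicle replicate 3 (0.0532), HGF replicate 1 (0.111) or HGF replicate 2 (0.0832). At 4 h AMOTL1 stood at 143, 142 and 152 CPM with HGF, 119.8, 117 and 125 CPM with MSP and 129, 119 and 136 CPM with vehicle. The HGF libraries were above all others, but the rise with TMM scaling (log2 fold change 0.19, SE 0.05, edgeR adjusted p = 0.00173) turned to -0.10 with library totals (edgeR adjusted p = 0.0853).

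AJUBA encodes a LIM-domain protein that binds LATS kinases and limits their activity. With HGF at 1 h it had 62.5, 61.1 and 62.6 CPM, with MSP 58.2, 55.0 and 58.1 CPM and with vehicle 56.2, 55.1 and 53.9 CPM. All HGF libraries were above all others (log2 fold change 0.17, SE 0.05, edgeR adjusted p = 0.0104), by a margin that did not pass with library totals (edgeR adjusted p = 0.288), without vehicle replicate 3 (0.0707) or without HGF replicate 3 (0.0532). At 4 h the HGF libraries, 50.9, 53.0 and 45.2 CPM, were below those of vehicle, 57.4, 54.6 and 56.1 CPM, and MSP libraries had 53.8, 51.6 and 51.4 CPM. That fall (log2 fold change -0.17, SE 0.05, edgeR adjusted p = 0.00373) was lost without HGF replicate 3 (edgeR adjusted p = 0.0711) and was -0.46 with library totals (edgeR adjusted p = 3.53e-09). A neighbouring gene that shares 0.836% of the AJUBA exon length on the same strand had 347 to 1595 counts per library, against 1338 to 2978 for AJUBA, and its part in these small differences was not tested.

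**Figure D2:**
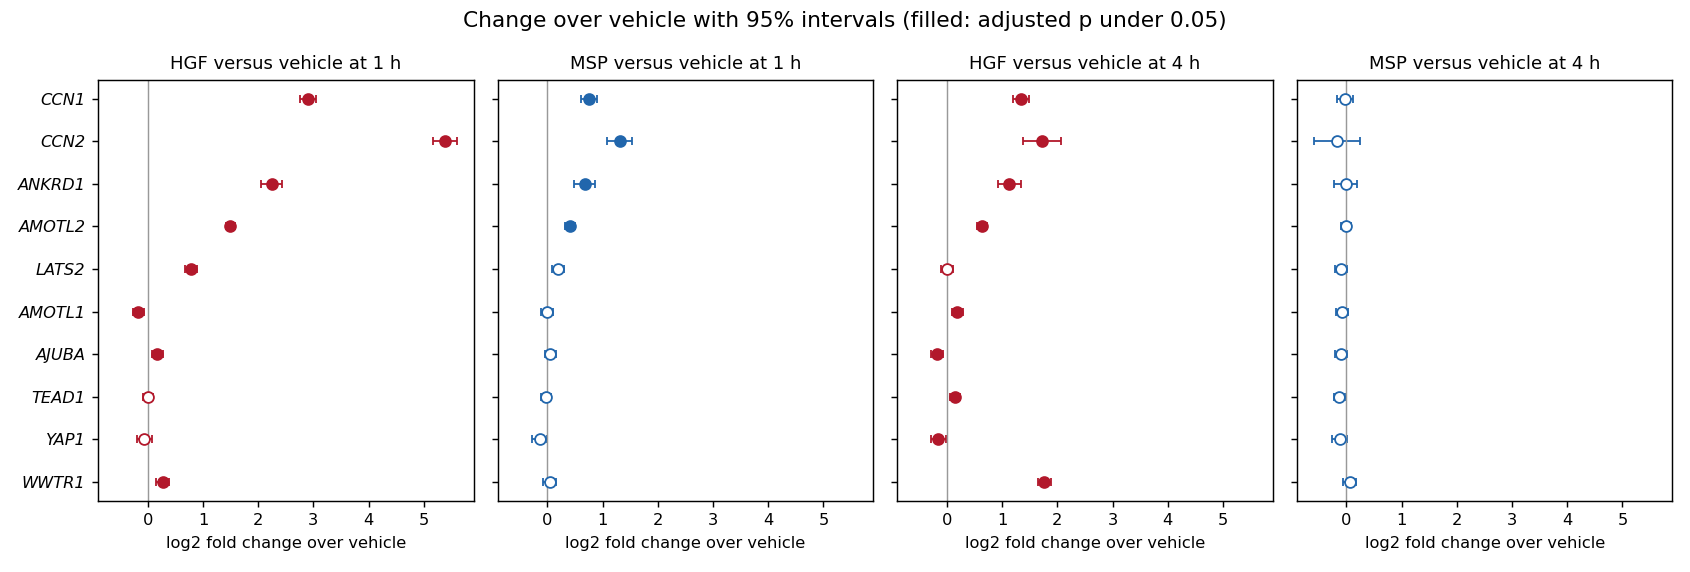
Log2 fold change of each gene over vehicle with its 95% confidence interval, for HGF (red) and MSP (blue) at 1 h and 4 h, with TMM scaling, where filled points have an edgeR adjusted p under 0.05. CCN2 stands at 5.38 after HGF at 1 h and at 1.31 after MSP, all MSP points at 4 h are open, and with library totals AMOTL1, LATS2 and TEAD1 lie below 0 after HGF at 4 h.

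WWTR1, which encodes the coactivator TAZ, had a later course than the target genes. At 1 h its HGF libraries had 179, 182 and 189 CPM, its MSP libraries 150.0, 177 and 143 CPM and its vehicle libraries 156, 151 and 149 CPM. HGF libraries were above all others, by 1.21-fold over vehicle (log2 fold change 0.27, SE 0.06, edgeR adjusted p = 0.000614), while the MSP libraries lay on both sides of the vehicle libraries. With library totals the HGF value at 1 h was 0.17 (edgeR adjusted p = 0.0206). At 4 h HGF libraries reached 454, 484 and 469.9 CPM, against 137, 141 and 153 CPM with MSP and 133, 145 and 136 CPM with vehicle. The HGF group lay far above both others, a 3.40-fold rise over vehicle (log2 fold change 1.77, SE 0.06, edgeR adjusted p = 1.45e-20). An antisense gene, WWTR1-AS1, covers 9.45% of the WWTR1 exon length and had 7 to 34 counts per library, against 4292 to 14410 for WWTR1.

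YAP1, which encodes the other coactivator, did not rise. At 1 h it had 424, 469.8 and 462 CPM with HGF, 433, 488 and 369.9 CPM with MSP and 489, 461 and 473 CPM with vehicle. These groups overlapped, and neither ligand passed the test (HGF -0.069, 95% interval -0.20 to 0.07; MSP -0.14, interval -0.28 to -0.00). Without MSP replicate 2 the MSP value at 1 h was -0.24 and passed (edgeR adjusted p = 0.0113). At 4 h YAP1 stood at 345, 344 and 344 CPM with HGF, 351, 342 and 364 CPM with MSP and 369.6, 381 and 399.9 CPM with vehicle. HGF libraries were close together and below all vehicle libraries (log2 fold change -0.16, SE 0.07, edgeR adjusted p = 0.0418), but within the MSP range. With library totals the fall was -0.45 (edgeR adjusted p = 4.75e-06). The call was lost in DESeq2 (adjusted p = 0.0858), with DESeq2 size factors in edgeR (adjusted p = 0.100) and with a replicate block (0.0646). Left out in turn, vehicle replicates 2 and 3 gave edgeR adjusted p = 0.0743 and 0.162, and HGF replicates 1, 2 and 3 gave 0.0869, 0.0935 and 0.0876.

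The share of WWTR1 in the coactivator transcripts was highest with HGF at 4 h. Per kilobase of exon, WWTR1 averaged 55.8 ± 1.80 CPM and YAP1 54.7 ± 0.100 CPM with HGF at 4 h (SD, n = 3). With MSP at 4 h the levels per kilobase were 17.1 ± 0.969 for WWTR1 and 55.9 ± 1.73 for YAP1, and with vehicle 16.4 ± 0.760 and 60.9 ± 2.44. The ratio of WWTR1 to YAP1 was 0.985, 1.05 and 1.02 in the HGF libraries at 4 h, beside a mean of 0.306 with MSP and 0.270 with vehicle. At 1 h the mean ratios were 0.304 with HGF, 0.273 with MSP and 0.240 with vehicle. A ratio within a library does not depend on its scaling, but it does depend on the exon lengths used. These lengths count all annotated exon bases of a gene, 8413 for WWTR1 and 6296 for YAP1, whichever transcripts the cells express. Whether both levels meet thus rests on those lengths. In CPM, without lengths, WWTR1 averaged 469 and YAP1 344 with HGF at 4 h, against 138 and 383 with vehicle at 4 h. The sum of both does depend on the scaling. Per kilobase and with TMM it was 110.4 ± 1.73 CPM with HGF at 4 h, 73.1 ± 2.56 CPM with MSP and 77.3 ± 2.66 CPM with vehicle. With library totals at 4 h, WWTR1 averaged 398 CPM with HGF, 150 CPM with MSP and 143 CPM with vehicle. YAP1 then averaged 292, 368 and 398 CPM, so the sum with HGF stood less far above the others.

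TEAD1, one of the DNA-binding partners, varied little. At 1 h its values were 123, 129 and 135 CPM with HGF, 125, 134 and 119 CPM with MSP and 129.8, 125 and 131 CPM with vehicle, all overlapping (HGF 0.0056, 95% interval -0.09 to 0.10). At 4 h HGF libraries had 131, 130.2 and 133 CPM, MSP libraries 105, 108 and 113 CPM and vehicle libraries 118, 116 and 122 CPM. HGF was highest and MSP lowest, with no overlap. The difference after HGF was a rise with TMM scaling (log2 fold change 0.15, SE 0.05, edgeR adjusted p = 0.00599) and a fall with library totals (-0.14, edgeR adjusted p = 0.00679). After MSP it was -0.13 and did not pass (edgeR adjusted p = 0.210).

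**Figure D3:**
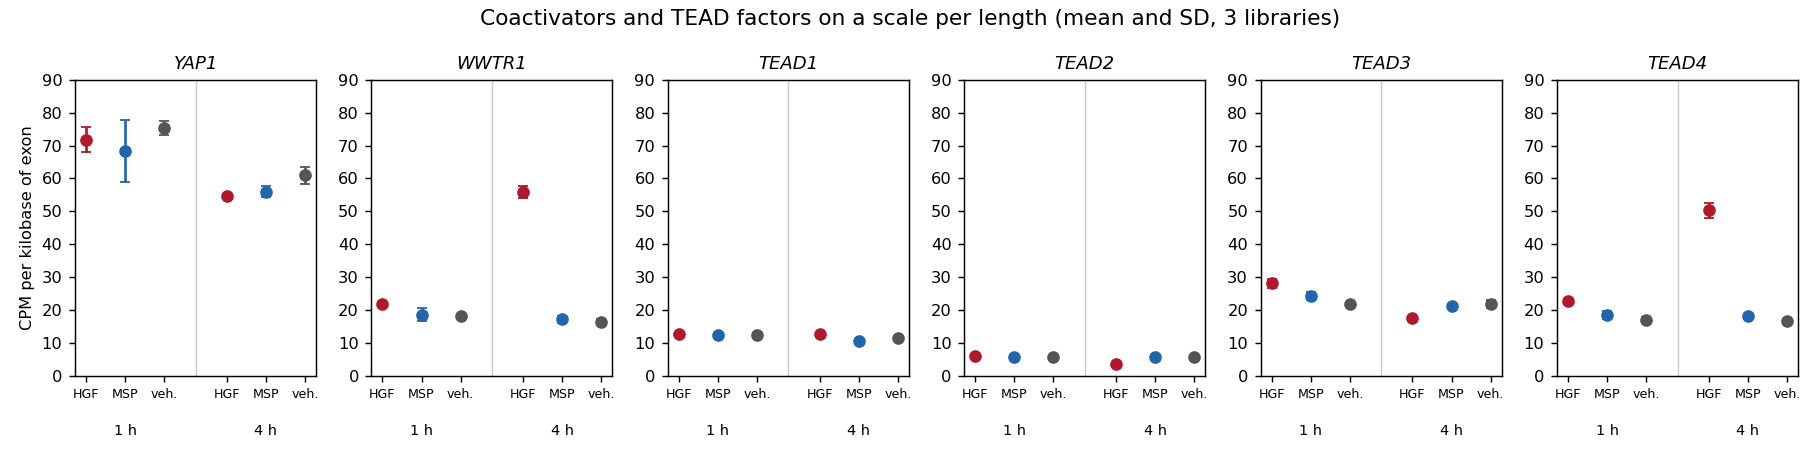
Mean level per kilobase of exon (CPM per kb, linear axis from 0, SD, n = 3) of YAP1, WWTR1 and TEAD1 to TEAD4, with HGF in red, MSP in blue and vehicle in grey at 1 h and 4 h. With the exon lengths used, WWTR1 meets the level of YAP1 only with HGF at 4 h among these 6 groups (55.8 and 54.7). TEAD4 is at 50.3 in that group, against 16.6 with vehicle at 4 h.

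On this scale per length the order of the 10 genes differed between groups. The SD is that among libraries and holds no error of the exon lengths, so it cannot decide whether different genes differ in level. With HGF at 1 h CCN1 was first at 443 ± 9.32 CPM per kilobase and CCN2 second at 101 ± 4.03. ANKRD1 at 73.4 ± 4.20 and YAP1 at 71.8 ± 3.87 were next, with overlapping ranges of 1 SD, ahead of AMOTL2 at 46.2 ± 1.53. With vehicle at 1 h YAP1 was first at 75.3 ± 2.20, then CCN1 at 59.1 ± 1.10, and CCN2 was last at 2.40 ± 0.314. The other 7 lay between 8.89 ± 0.335 for LATS2 and 18.1 ± 0.408 for WWTR1, and the ranges of 1 SD overlapped for LATS2 and AJUBA (9.21 ± 0.186) and for ANKRD1 (15.5 ± 1.09) and AMOTL2 (16.4 ± 0.0490). With HGF at 4 h CCN1 stood at 97.2 ± 6.88, ahead of WWTR1 and YAP1, whose ranges of 1 SD overlapped.

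HGF and MSP were also compared directly, to ask whether ligands of related receptors differ at a matched time. The doses differ (80 and 100 ng/ml), so the comparison is of these treatments. At 1 h 6 of the 10 genes were higher and 1 lower with HGF, where 11.4% of all genes were higher and 6.36% lower. With library totals the split was 5 and 1, where 7.72% of all genes were higher and 18.5% lower. The difference was 4.08 for CCN2 (SE 0.09, edgeR adjusted p = 1.51e-19), 2.15 for CCN1, 1.57 for ANKRD1, 1.09 for AMOTL2 and 0.58 for LATS2. WWTR1 was higher by 0.23 (edgeR adjusted p = 0.00386), a call that was lost with library totals (0.0683) and with only the groups compared (0.0532). The lower gene was AMOTL1 (log2 fold change -0.16, SE 0.05, edgeR adjusted p = 0.0284), at -0.25 with library totals. Its call with TMM was lost without HGF replicate 1 (0.160), HGF replicate 2 (0.129) or MSP replicate 3 (0.0608), and with only the groups compared (0.0702). YAP1 differed by 0.072 and passed only without MSP replicate 2 (0.17, edgeR adjusted p = 0.0235). For TEAD1 the 95% interval was -0.06 to 0.13 and for AJUBA 0.02 to 0.22, neither passing.

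At 4 h 7 of the 10 were higher with HGF than with MSP and 0 lower, where 32.7% of all genes were higher and 33.8% lower. CCN2 differed by 1.89 (SE 0.16, edgeR adjusted p = 1.00e-09), WWTR1 by 1.70, CCN1 by 1.35, ANKRD1 by 1.14 and AMOTL2 by 0.64 (0.34 with library totals). TEAD1 (0.28) and AMOTL1 (0.27) were the other 2, and both turned sign with library totals, to -0.023 and -0.027. The split with library totals was 5 higher and 3 lower, where 19.8% of all genes were higher and 53.4% lower. LATS2, at 0.10 (edgeR adjusted p = 0.0971), passed without HGF replicate 2 (0.17, edgeR adjusted p = 0.0115), in DESeq2 (0.13, adjusted p = 0.0364) and with DESeq2 size factors in edgeR (0.0334). It turned to -0.19 with library totals (edgeR adjusted p = 0.00303). AJUBA (-0.075) and YAP1 (-0.033) did not pass with TMM and were lower with library totals, at -0.37 (edgeR adjusted p = 2.20e-07) and -0.33 (edgeR adjusted p = 0.000158).

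The change of each ligand effect between times was tested as an interaction, the effect at 4 h minus the effect at 1 h. For HGF 6 of the 10 genes had a lower effect at 4 h and 2 a higher one, where 26.4% of all genes were lower and 26.8% higher. With library totals 7 were lower and 2 higher, where 37.9% of all genes were lower and 18.6% higher. The interaction on the log2 scale was -3.67 for CCN2 (SE 0.22, edgeR adjusted p = 4.91e-12), -1.57 for CCN1, -1.11 for ANKRD1, -0.87 for AMOTL2, -0.77 for LATS2 and -0.35 for AJUBA (-0.54 with library totals). Opposite to these, the effect on WWTR1 was higher at 4 h by 1.50 (SE 0.08, edgeR adjusted p = 4.74e-15) and that on AMOTL1 by 0.36 (0.17 with library totals). TEAD1, at 0.14 (edgeR adjusted p = 0.0668), passed in DESeq2 (adjusted p = 0.0251) and, in edgeR, with DESeq2 size factors (0.0248), with no filter on low counts (0.0263) and with only the groups compared (0.0365). It also passed without vehicle 1 h replicate 2 (0.0431), HGF 1 h replicate 3 (0.0253) or vehicle 4 h replicate 3 (0.0438), and was -0.047 with library totals (edgeR adjusted p = 0.563). YAP1 was at -0.087 (95% interval -0.28 to 0.11) and passed with library totals (-0.28, edgeR adjusted p = 0.0162).

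For MSP 4 of the 10 genes had a lower effect at 4 h and 0 a higher one, where 0.274% of all genes were lower and 0.0476% higher. These were CCN2 (-1.48, edgeR adjusted p = 0.00162), CCN1 (-0.77, 0.000100), AMOTL2 (-0.42, 0.000100) and ANKRD1 (-0.69, 0.0295). The ANKRD1 call was lost with only the groups compared (edgeR adjusted p = 0.102) and when any 1 of 8 libraries was left out. Those were vehicle 1 h replicates 1 and 3 (0.0851 and 0.0703), MSP 1 h replicates 1 and 2 (0.0875 and 0.0832), vehicle 4 h replicate 3 (0.0801) and MSP 4 h replicates 1, 2 and 3 (0.0885, 0.0742 and 0.0674). LATS2, at -0.30, did not pass in edgeR (adjusted p = 0.0911), but did in edgeR with no filter on low counts (0.0330) and in DESeq2 (adjusted p = 0.0423).

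Vehicle libraries differed between times without any ligand. At 4 h 4 of the 10 genes were lower than at 1 h and 1 was higher, where 9.99% of all genes were lower and 10.9% higher. Besides CCN2, the lower ones were CCN1 (log2 fold change -0.62, SE 0.07, edgeR adjusted p = 2.62e-06), ANKRD1 (-0.57, edgeR adjusted p = 0.000515) and YAP1 (-0.31, edgeR adjusted p = 0.00212). AMOTL1 was higher (0.23, edgeR adjusted p = 0.00225). The counts were 6 lower and 1 higher under 3 other settings, TEAD1 and WWTR1 being added. Their edgeR adjusted p-values were 0.0232 and 0.0335 with library totals, where 12.2% of all genes were lower and 8.78% higher, 0.0460 and 0.00952 with no filter, and 0.0134 and 0.00497 with only the groups compared.

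The rest of the pathway was followed in lists chosen by role, also with earlier results of these data known. Their counts are read against the shares of all genes, which after HGF were 13.8% higher and 7.16% lower at 1 h and 33.1% and 34.8% at 4 h with TMM, and 9.07% and 21.4% at 1 h and 21.2% and 52% at 4 h with library totals. After MSP 0.78% of all genes rose and 0.0536% fell at 1 h, and 0.774% rose and 0.292% fell at 4 h, with TMM. Of 14 upstream kinases and adaptors of the Hippo cascade, 4 rose and 1 fell at 1 h of HGF (median 0.055, beside -0.0041 for all genes). With library totals the split was 2 and 3. TAOK2, a kinase that activates MST, stood at 0.34, WWC2, a relative of the scaffold KIBRA, at 0.28 and SAV1, the MST adaptor, at -0.20. With library totals WWC2 was at 0.17 and SAV1 at -0.30. At 4 h of HGF 12 rose and 1 fell (median 0.61, beside -0.059), or 8 and 2 with library totals. WWC1, which encodes KIBRA, rose 3.05-fold (log2 fold change 1.61, SE 0.07, edgeR adjusted p = 1.27e-18). WWC2 rose by 1.38 and FRMD6, a membrane-bound activator of the cascade, by 0.93. After MSP 0 of the 14 passed at 1 h or at 4 h, in edgeR or in DESeq2, with 1 and 3 genes at an unadjusted p below 0.05.

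The list of 14 other inhibitors and cofactors of YAP and TAZ also holds scaffolds of a phosphatase that acts on the MST kinases. Its counts therefore have no single direction for YAP. Of the 14, 4 rose and 0 fell at 1 h of HGF, or 2 and 2 with library totals. At 4 h of HGF 6 rose and 5 fell, or 4 and 6 with library totals. The counts at 4 h are near those shares of all genes. STRN3, a striatin scaffold of the phosphatase complex that dephosphorylates the MST kinases, stood at 0.38 at 1 h and 0.74 at 4 h. Its relative STRN4 was at 0.75 at 4 h. With library totals STRN3 was at 0.45 and STRN4 at 0.46 at 4 h. VGLL3, a TEAD cofactor, fell by 1.92 at 4 h (SE 0.13, edgeR adjusted p = 1.21e-11). The LIM protein WTIP rose by 0.33 at 1 h, while VGLL4, a TEAD corepressor, rose by 0.15, a call that was lost with library totals (edgeR adjusted p = 0.391). After MSP 0 of 14 passed in either tool at either time, with 3 genes at 1 h and 0 at 4 h at an unadjusted p below 0.05.

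Of the 3 other TEAD genes 2 rose and 0 fell at 1 h of HGF, where 13.8% of all genes rose and 7.16% fell. At 4 h 1 rose and 2 fell, where 33.1% of all genes rose and 34.8% fell. TEAD4 averaged 114 ± 5.25 CPM with HGF at 4 h, 41.5 ± 1.07 CPM with MSP and 37.8 ± 1.02 CPM with vehicle, a 3.02-fold rise over vehicle (log2 fold change 1.59, SE 0.05, edgeR adjusted p = 5.91e-22). TEAD2 averaged 10.4 ± 0.568 CPM with HGF, 16.8 ± 0.682 CPM with MSP and 17.3 ± 0.809 CPM with vehicle (-0.73, edgeR adjusted p = 4.91e-10). TEAD3 rose at 1 h (0.36) and fell at 4 h (-0.32), and TEAD4 rose at 1 h too (0.40). These directions were the same with library totals, TEAD3 then being at -0.61 at 4 h. Per kilobase TEAD4 was at 50.3 ± 2.31 CPM with HGF at 4 h, above TEAD3 at 17.5 ± 0.654, TEAD1 at 12.8 ± 0.135 and TEAD2 at 3.50 ± 0.191. With vehicle at 4 h TEAD3 was first at 21.8 ± 1.35 and TEAD4 second at 16.6 ± 0.450. MSP passed for 0 of these 3 in either tool, with 1 at an unadjusted p below 0.05 at each time.

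Among the other 4 CCN genes 2 had enough counts to be tested. CCN3, another matricellular protein, fell at 4 h of HGF (log2 fold change -0.63, SE 0.12, edgeR adjusted p = 3.34e-05), opposite to CCN1 and CCN2. In the other 3 ligand comparisons 0 of these 2 passed and 0 had an unadjusted p below 0.05, and DESeq2 called 0 after MSP. Of 16 other published YAP targets 14 were tested. At 1 h of HGF 6 rose and 1 fell (4 and 5 with library totals), and at 4 h 8 rose and 5 fell (6 and 6), the falls at 4 h being near the 34.8% of all genes with TMM. F3, which encodes tissue factor, averaged 3889 ± 169 CPM with HGF at 4 h, 582 ± 11.5 CPM with MSP and 514 ± 44.1 CPM with vehicle (log2 fold change 2.92, SE 0.05, edgeR adjusted p = 1.30e-27). Unlike CCN1 and CCN2, its rise was larger at 4 h than at 1 h (1.82; interaction 1.10, edgeR adjusted p = 3.11e-14). GADD45A, a growth-arrest gene, stood at 1.29 at 1 h and the exchange-factor gene ARHGEF17 at 0.28 (0.18 with library totals). FJX1, a secreted relative of four-jointed in flies, stood at 1.77 at 4 h and ASAP1, an Arf GTPase-activating protein, at 1.19. At 1 h of MSP F3 alone passed (log2 fold change 0.35, SE 0.05, edgeR adjusted p = 2.59e-05), and at 4 h 0 did in either tool, with 4 at an unadjusted p below 0.05.

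**Figure D4:**
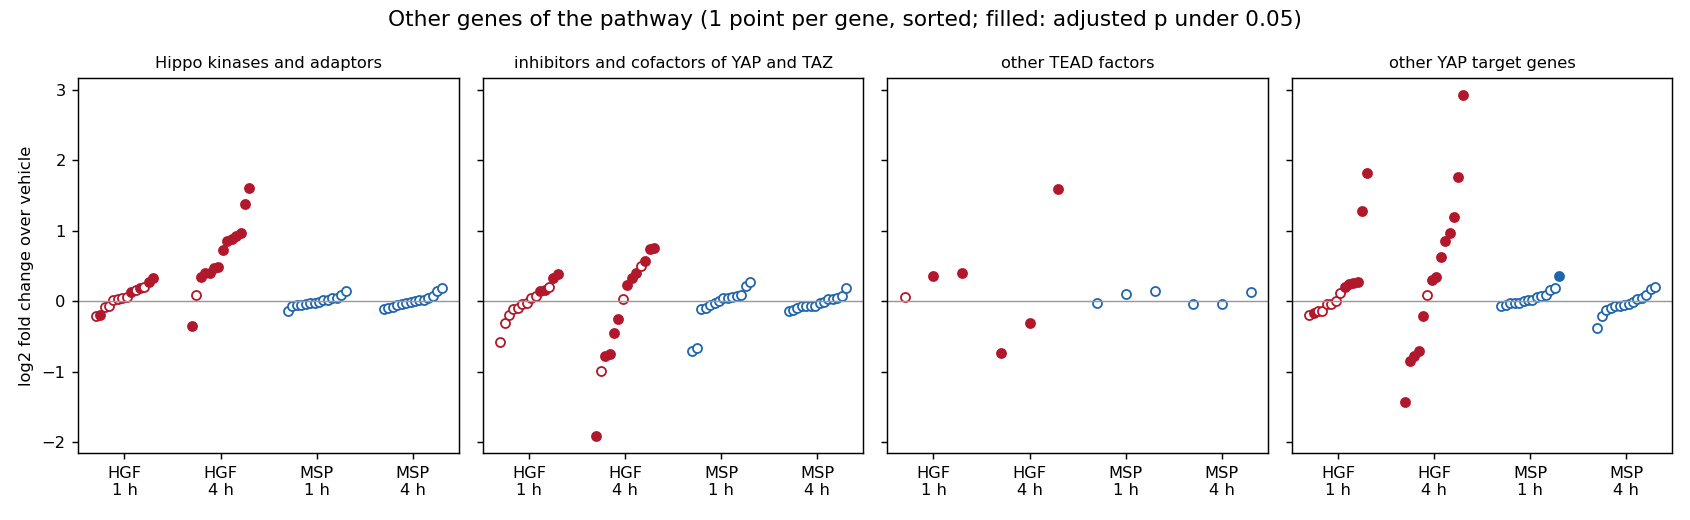
Log2 fold change over vehicle of the other pathway genes, 1 point per gene tested and sorted within each comparison, for HGF (red) and MSP (blue) at 1 h and 4 h with TMM scaling; filled points have an edgeR adjusted p under 0.05. After HGF at 4 h 12 of 14 Hippo kinases and adaptors are filled above 0 (8 with library totals), and after MSP 1 target gene, F3 at 1 h, is filled.

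The members also differed in which genes of the whole table they tracked. Over the 18 libraries the log2 CPM of CCN1 correlated with ANKRD1 at r = 0.996 and with CCN2 at 0.984, and that of CCN2 with LATS2 at 0.966. These are among the highest pairs of members, and not all pairs moved together. The lowest was AMOTL1 with AJUBA at -0.78, and AMOTL1 with YAP1 was at -0.71 and YAP1 with WWTR1 at -0.38. Among 12460 other genes, the nearest to CCN2 were FOSB (Pearson r = 0.998), EGR3 (0.997) and NR4A1 (0.991), all transcription factors of the immediate-early class. For CCN1 they were ID1 (0.992), NR4A1 (0.992) and CSRNP1 (0.991), and for ANKRD1 EGR4, NR4A1 (both 0.985) and CSRNP1 (0.983). AMOTL2 was nearest to SERTAD1 (0.993), ITPRIP (0.992) and IER3 (0.992), and LATS2 to PPP1R10 (0.983), MISP (0.975) and EGR2 (0.971).

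Other genes were close to WWTR1, among them STK4 (0.995), which encodes the kinase MST1, and FRMD6 (0.994). Of these, STK4 rose by 0.88 after 4 h of HGF. The nearest to YAP1 were SCAMP1 (0.981), XPO1 (0.980) and ZDHHC20 (0.980). AMOTL1 was nearest to SF3B3 (0.955), DNMBP (0.954) and PRKDC (0.950), TEAD1 to SKAP2 (0.944), IL6ST (0.942) and NAA30 (0.937), and AJUBA to PXDC1 (0.913), CABLES2 (0.904) and PRKD2 (0.902). These correlations describe 18 libraries of 6 groups that share their treatments and scaling, and carry no p-value.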

How the data were processed

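The deposited table holds whole-number counts per Ensembl gene for 18 libraries, made by the authors with STAR and featureCounts of Subread per the submitters' processing notes. Libraries came from a KAPA mRNA kit per the labels. The genome build, annotation and strand setting were not given in the sources used here. Exon lengths and overlaps came from GENCODE exons matched by identifier, and promoter sequences from RefSeq (GRCh38.p14). The length of a gene is that of all its annotated exons together, not of the transcripts expressed in these cells.

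Counts were fitted with edgeR 4.0.16 in R 4.3.3: TMM scaling, a filter on low counts (minimum 10, total 15), 1 mean per group over all 18 libraries and the robust quasi-likelihood test, with Benjamini-Hochberg adjustment over 16794 genes at 0.05. The fit was also run on simulated counts with known changes, and its recovery of them is not reported here. Of the counts at most 0.0573% per library fell to the filter. Alternatives were DESeq2 1.42.0 and its size factors, library totals, no filter, no robust estimation, a replicate block, only the groups compared, and each library left out.

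All 10 members are named. From each list up to 3 genes per ligand comparison with the smallest adjusted p below 0.05 are named, and the 3 genes most correlated with each member among those of at least 1 CPM, except that 1 of them is not reported here. FRMD6 and STK4 values beyond this, and the levels of TEAD genes and F3, were added after they were seen, as were the other scalings of the lists. The members and lists were chosen with earlier results of these data known. A count of 3 corresponds to 0.0619 to 0.0982 CPM, for counting error only.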

Additional observations from a re-analysis of the deposited data

Results flagged for a closer look

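The effect of a ligand over vehicle differed between 4 h and 1 h, in an edgeR interaction test with Benjamini-Hochberg adjustment over all genes, for 12 results. Values are the log2 effect at 4 h minus that at 1 h. For HGF they were -1.57 for CCN1, -3.67 for CCN2, -1.11 for ANKRD1, -0.87 for AMOTL2, -0.77 for LATS2 and -0.35 for AJUBA, with 0.36 for AMOTL1 and 1.50 for WWTR1 in the other direction. For MSP they were -0.77 for CCN1, -1.48 for CCN2, -0.69 for ANKRD1 and -0.42 for AMOTL2. Each effect is relative to the vehicle libraries of its own time, which themselves differed between times for CCN1, CCN2, ANKRD1 and AMOTL1. Groups of 3 libraries are too small for a test of single outlying libraries.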

How the results depend on the processing

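Of 90 results for single members, 67 kept their side of the threshold under all 7 alternative settings and every fit that left out 1 library. Those of the 67 that passed also kept their direction. A change of sign in a result that did not pass is not counted here. With library totals some results that passed with neither scaling turned sign, such as the HGF interaction of TEAD1 (-0.047). Of those that passed with TMM or with library totals, 6 turned sign. After HGF against vehicle at 4 h they were AMOTL1 (-0.10), LATS2 (-0.29) and TEAD1 (-0.14). With HGF against MSP at 4 h they were AMOTL1 (-0.027), LATS2 (-0.19) and TEAD1 (-0.023). That scaling moves the median of all genes to -0.349 and -0.373 in these comparisons, and is a change of scale by construction. The number of members called stayed within 1.5 times of its value under every alternative setting. Leaving out 1 library gave 6 to 8 members for HGF against vehicle at 1 h, 7 to 9 at 4 h, 4 to 5 for MSP at 1 h, 0 for MSP at 4 h, 6 to 8 and 7 to 8 for HGF against MSP, 8 to 9 and 3 to 4 for the interactions of HGF and MSP, and 5 between vehicle times.

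Over all genes, calls for MSP at 4 h numbered 179, with 354 without the filter, 402 with only the groups compared and 16 to 220 when 1 library was left out, the lowest without MSP replicate 2. For MSP at 1 h the 140 calls became 81 with only the groups compared. The 54 interaction calls of MSP became 148 without the filter and 85 in DESeq2, and the 3513 calls between vehicle times 2227 to 2975 when 1 library was left out. The cause was not tested, beyond the fewer genes or samples that a setting holds.

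The replicate numbers were not taken as pairs: same-numbered libraries deviated together at r = -0.065 to 0.12. The highest was replicate 3 of MSP at 4 h with that of vehicle at 1 h. Outside the MSP interaction no pair was over 0.093. The rule for pairing, set at 0.1 for every pair of a comparison, was met in none. Libraries of different number were not compared in this way. With the replicate block the interaction of MSP for ANKRD1 (edgeR adjusted p = 0.0669) and YAP1 after HGF at 4 h (edgeR adjusted p = 0.0646) lost their calls, and no count of members moved by over 1.5 times. CCN2 at 4 h rests on 51 to 232 counts per library, which limits its precision; the other members had at least 567.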
